A study of Mus musculus with 71 samples.

Results

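Mice on a high-fat, high-sucrose (HFS) diet eaten ad lib were compared 12 h after object recognition memory training (ORM+12 h) and in the home cage (HC zt15), gene by gene, in hippocampal mRNA bound to ribosomes with phosphorylated S6. The groups are defined by diet, feeding schedule and task, and they hold 12 of the 71 mice of the series, 6 trained and 6 home cage. All 12 were wild-type male C57Bl/6J mice given HFS food without restriction for 12 weeks from weaning. The trained mice explored objects once for 10 min and were killed 12 h later, around zt15, which is 15 h after lights on. Home cage mice were killed at zt15 without training. The study asks how an obesogenic diet impairs memory and how time-restricted feeding (TRF) of the same food, or normal chow (NC), differs from it. Each library is 1 mouse, and the deposited values are raw counts of reads per gene. Total counts ran from 46952914 to 58754989 in the home cage mice (median 53505602.5) and from 44964018 to 57452006 in the trained mice (median 55744805).

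In pS6-TRAP an antibody against phosphorylated ribosomal protein S6 pulls down ribosomes together with the mRNA they carry. S6 is phosphorylated in cells with recent activity, so the method weights the mRNA pool toward active cells, but it takes ribosomes from all cell types of the dissected hippocampus. Training on objects induces immediate early genes within the first hour. Later phases of consolidation are known for synaptic, structural and metabolic genes, and a dissected hippocampus can carry choroid plexus and neighbouring tissue along.

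Among the genes that fell 12 h after training were Gad2, which makes GABA in inhibitory neurons, Necab1, a calcium-binding protein, and Rcan2, a regulator of the phosphatase calcineurin. Vat1, Dnm3 and Epb41l3, proteins of vesicles and of the membrane skeleton, fell too. Among those that rose were the calcium release channel Ryr1, the membrane protein Pkd1 and the histone methyltransferase Dot1l. Of 30141 genes with at least 10 counts in total, 54 (0.179%) passed edgeR's quasi-likelihood F test at 0.05 after Benjamini-Hochberg adjustment of p. Of these, 21 rose (0.0697%) and 33 fell (0.109%). At an unadjusted p under 0.05 there were 2393 genes higher (7.94%) and 2736 lower (9.08%). The groups did not overlap for 36 genes with the trained mice above (0.119%) and 40 genes with them below (0.133%), and 4 and 4 of these were among the 54.

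The number of genes depended on single mice. Without trained mouse 2 there were 0 such genes, at 4604 genes with an unadjusted p under 0.05, and without trained mouse 5, 3, 6 or 1 there were 2, 5, 15 and 26. Leaving out home cage mouse 2, 4, 5 or 1 gave 4, 8, 11 and 23 genes. The number rose to 105 without home cage mouse 3, to 405 without trained mouse 4 and to 694 without home cage mouse 6. All 54 were among the genes that passed without home cage mouse 6 and among those without trained mouse 4. DESeq2's Wald test gave 252 genes, 48 of them among the 54, and a model of these 12 mice alone gave 0, at 3070 genes with an unadjusted p under 0.05.

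The median transcript of the 54 genes was long, 4773 bases for the genes that rose and 4105 for those that fell, against 2666 bases over all genes. GC content was 53.3% at the median of the genes that rose and 45.2% of those that fell, and 48.9% over all genes. Protein-coding genes made up 15 of 21 and 26 of 33, against 17601 of all 30141 (58.4%). Pseudogenes were 1 and 7 of them and 4410 of all genes. These sets also differed in level, given in CPM, which are read counts scaled to a common library size. The median was 19.3 CPM for the genes that rose, 24.8 CPM for those that fell and 0.783 CPM over all genes. Under 1 CPM were 4 of the 21, 6 of the 33 and 15553 of all 30141. All genes are thus not a background of like level. Whether length, GC content or gene type differ from genes of like level was not tested. For 11 of the 21 genes that rose, trained mouse 2 was the highest of the 12 mice, as it was for 2219 of all 30141. Home cage mouse 2 was the highest for 11 of the 33 that fell and for 3452 of all genes. Genes that rose were chosen for high values in trained mice, and those that fell for high values in home cage mice. The shares over all genes are thus not a like background for these counts. Across 14545 genes, which are not independent replicates, the log2 fold change went with transcript GC content at a Spearman correlation of 0.248 and with transcript length at -0.020. Within a mouse, the deviation of each gene from its mean over the 12 mice went with GC content at a correlation of -0.39 to 0.27 over the home cage mice, highest in mouse 6, and of -0.10 to 0.23 over the trained mice, lowest in mouse 4. With offsets for GC content and length, an alternative chosen after seeing the data, 56 genes passed, and 37 of them were among the 54.

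The mice differed in markers of tissue content, which are given before the genes. Ttr (ENSMUSG00000061808), which encodes the thyroxine carrier transthyretin, is the most abundant transcript of choroid plexus epithelium. It ran from 98.7 to 8186 CPM, read counts scaled to a common library size, in the home cage mice (median 600) and from 116 to 15266 CPM in the trained mice (median 4898). High levels were found in home cage mouse 3 and in trained mice 1, 3 and 5, with 8186, 8896, 8602 and 15266 CPM. The remaining 8 mice lay between 98.7 and 1194 CPM, and the groups overlapped over most of their range. Its log2 fold change was 1.69 with a standard error of 1.20 and an adjusted p of 0.481, and 3.52 without home cage mouse 3. All 16 choroid plexus markers were detected, none at 0, with positive log2 fold changes from 1.05 to 1.84 (median 1.67). Of the 16, 0 passed edgeR's test, 0 had an unadjusted p under 0.05, and 0 passed DESeq2's Wald test. Summed over the list, the level was 241, 191, 9294, 367, 1422 and 1162 CPM in home cage mice 1 to 6 and 10402, 1451, 9834, 195, 17330 and 686 CPM in trained mice 1 to 6. Without the 4 mice that were high the median of the list was 0.22.

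The first principal component of the 12 mice, 42.7% of the variance over 14588 genes of at least 1 CPM, separated the 4 mice rich in Ttr from the rest. Its scores were 29.8 in home cage mouse 3 and 39.3, 31.7 and 47.8 in trained mice 1, 3 and 5, and below 0 in the other 8. Home cage mouse 2 stood apart on the second component (12.7%), at -38.7. Klotho (Kl), a membrane protein of choroid plexus and kidney, followed the pattern, at 26.4 to 243 CPM in the home cage (median 40.7) and 30.1 to 454 CPM after training (median 164). Foxj1, the master regulator of motile cilia in the ependymal lining, had 6.45 to 26.5 CPM in home cage mice and 5.87 to 55.6 CPM in trained mice, with trained mice 1 and 5 the highest. The 9 ependymal markers tested had a median log2 fold change of 0.88, which was 0.06 without the 4 mice rich in choroid plexus, and 0 of 9 passed. With the choroid plexus level as a covariate 56 genes passed, 39 of them among the 54. Without the 4 mice, an alternative chosen after seeing the data, 28 passed, 24 higher and 4 lower, 9 of them among the 54.

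The level of microglial markers stood apart in 1 mouse. C1qa (ENSMUSG00000036887), a chain of complement component C1q made in the brain by microglia, lay between 9.44 and 79.2 CPM in the home cage mice (median 11.3) and between 8.51 and 14.2 CPM in the trained mice (median 11.2). The highest value is home cage mouse 2 alone. The next highest home cage mouse had 11.5 CPM, and the other 5 home cage mice lay within the range of the trained mice. C1qa had a fitted log2 difference of -0.98 (standard error 0.27, adjusted p = 0.101), which became 0.05 without that mouse. All 18 microglial markers had negative log2 fold changes, with a median of -0.93. Of the 18, 0 passed the adjusted p in edgeR's test, 16 had an unadjusted p under 0.05 and 8, C1qa among them, passed DESeq2's Wald test. Without home cage mouse 2 the median was 0.05 and 0 of 18 had an unadjusted p under 0.05 in either direction. None of them was at 0, and the summed level was 134, 918, 132, 135, 134 and 137 CPM in home cage mice 1 to 6 and 113, 113, 167, 129, 163 and 153 CPM in trained mice 1 to 6. Bulk values cannot tell fewer cells of a type apart from less RNA per cell, nor, in pS6-TRAP, from a difference in S6 phosphorylation.

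The same mouse stood out for 2 further genes of microglia, Bin2 and Fcgr2b (ENSMUSG00000026656), which passed the test and were chosen here after their values had been seen. Bin2 (ENSMUSG00000098112), a membrane-bending protein of phagocytes, had 44.9 CPM in home cage mouse 2 and 1.52 to 3.14 CPM in the other 5, against 1.69 to 3.52 CPM in the trained mice. Its log2 fold change was -2.02 (standard error 0.46, adjusted p = 0.0357) and -0.00 without that mouse. Fcgr2b, the inhibitory Fc receptor for IgG, had 9.74 CPM in that mouse and at most 0.885 CPM in the other home cage mice, and 0.140 to 0.834 CPM after training. It fell by 2.45 on the log2 scale (adjusted p = 0.0401), and its log2 fold change was -0.54 (adjusted p = 0.635) without home cage mouse 2. C1qc, the partner chain of C1qa, came close to the threshold at a log2 fold change of -1.12 (adjusted p = 0.0530), which was -0.11 without that mouse. With the microglial level as a covariate 10 genes passed, 9 of them among the 54.

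**Figure D1:**
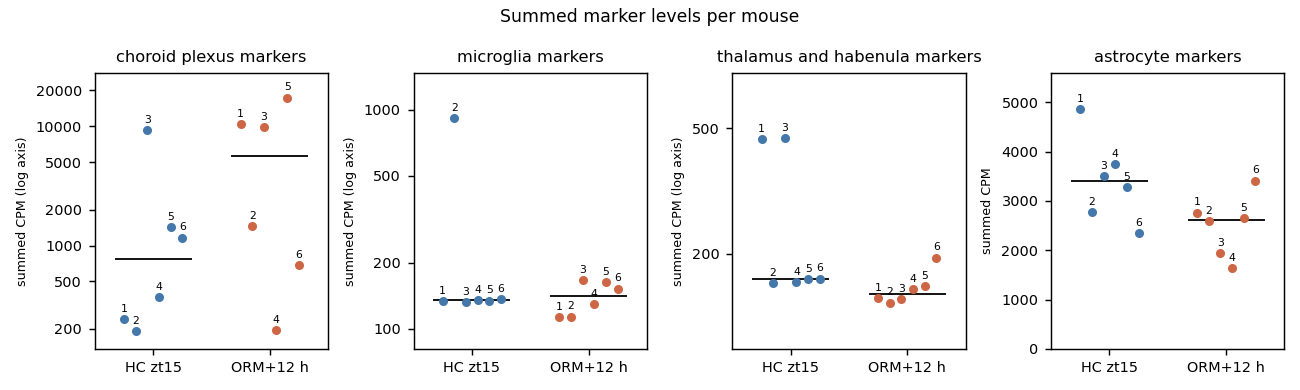
Summed level in CPM of 4 marker lists in each of the 12 mice, home cage on the left and trained on the right of each panel, with mouse numbers beside the points and a line at each median. The axes for choroid plexus, microglia and thalamus and habenula are logarithmic, that for astrocytes is linear, and home cage mouse 2 stands at 918 CPM of microglial markers.

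Marker levels of tissue from beyond the hippocampus differed as well, and their source was not tested. Markers of thalamus and habenula, the structures under the dissected hippocampus, summed to 462 and 466 CPM in home cage mice 1 and 3. The other 10 mice lay between 140 and 195 CPM, trained mice at 145, 140, 144, 155, 158 and 195 and home cage mice 2, 4, 5 and 6 at 162, 163, 167 and 167. All 12 markers had negative log2 fold changes (median -0.99), 7 at an unadjusted p under 0.05, none past the adjusted p, none at 0 counts, and Prkcd was the most abundant. Without home cage mice 1 and 3 the median was 0.10 and 0 of 12 had an unadjusted p under 0.05 in the lower direction. Plekhg1, a guanine nucleotide exchange factor in this list, showed it mouse by mouse, at 31.0 and 33.1 CPM in home cage mice 1 and 3 and at most 11.7 CPM in the other 10. Without these mice, an alternative chosen after seeing the data, 87 genes passed, 15 higher and 72 lower, and 27 of them were among the 54. The 11 cortex and subiculum markers had a median of -0.21 and the 11 striatal markers -0.00, with 0 passing in each. At an unadjusted p under 0.05 there were 2 lower in the first list and 2 higher in the second. Median and counts over all genes tested are 0.00, 54 and, at an unadjusted p under 0.05, 5129.

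Of the 43 gene lists examined, 6 held a gene that passed edgeR's test and 37 held 0, and DESeq2's Wald test passed genes in 8 of those 37. No tested marker of the hippocampal cell types was at 0 in all 12 mice. Since every gene tested had at least 10 counts in total, this does not show that a cell type was present. Of 10 markers of dentate gyrus granule cells 9 had positive log2 fold changes, 5 of them at an unadjusted p under 0.05, with a median of 0.27, and 0 passed the test. Their summed level ran from 431 to 536 CPM in the home cage mice (median 440) and from 500 to 640 CPM in the trained mice (median 537), so that trained mice were higher with an overlap at home cage mice 4 and 6. Prox1, the transcription factor that gives granule cells their identity, had 80.5 to 96.2 CPM (median 82.9) in home cage and 85.0 to 136 CPM (median 101) in trained mice. The log2 fold change of Prox1 was 0.30 (standard error 0.12, adjusted p = 0.211). Pdzd2, a protein with several PDZ domains, had 43.0 to 72.5 CPM against 62.3 to 91.4 CPM, at a log2 fold change of 0.50 (adjusted p = 0.118), and passed DESeq2's test. Markers of CA1 pyramidal cells (10 tested, median 0.02) and of CA3 and CA2 pyramidal cells (12 tested, median 0.01) stayed near the median of all genes, with 0 and 1 at an unadjusted p under 0.05.

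Astrocytes and oligodendrocytes had negative medians. The 15 astrocyte markers had a median log2 fold change of -0.46, with 14 negative, 4 at an unadjusted p under 0.05 and 0 past the adjusted p. Their summed level was 4864, 2774, 3505, 3751, 3289 and 2343 CPM in home cage mice 1 to 6 and 2764, 2586, 1938, 1644, 2654 and 3412 CPM in trained mice 1 to 6. Home cage mouse 1 was the highest and trained mouse 4 the lowest, with home cage mice 2, 5 and 6 inside the range of the trained mice. Acsbg1, an acyl-CoA synthetase of astrocytes, had 82.4 to 213 CPM (median 159) against 62.0 to 124 CPM (median 96.6), at a log2 fold change of -0.75 (adjusted p = 0.211). Without the home cage mice with thalamic markers, 1 and 3, the median of the astrocyte list was -0.19 and 0 of 15 were lower at an unadjusted p under 0.05. All 12 markers of myelinating oligodendrocytes were negative (median -0.26, 4 at an unadjusted p under 0.05, or 1 without home cage mice 1 and 3), among them the myelin enzyme Cnp with 212 to 267 CPM in home cage and 143 to 231 CPM in trained mice. For oligodendrocyte precursors the median of 10 was -0.18, for endothelial cells it was 0.07 over 13 markers, and for mural cells and fibroblasts 0.18 over 14. Vtn, a matrix protein of pericytes in that last list, had 2.48 to 4.78 CPM in the home cage and 4.24 to 12.9 CPM after training, highest in trained mice 6, 5 and 1 (log2 fold change 1.10, adjusted p = 0.194). In each of these lists 0 genes passed the test.

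Among the neuronal markers, 1 gene of inhibitory neurons passed the test. Gad2 (ENSMUSG00000026787, chromosome 2 of GRCm39 from 22511862 to 22583886), the synaptic glutamate decarboxylase that makes GABA, had 86.9 to 146 CPM in the home cage mice (median 108) and 72.5 to 98.6 CPM in the trained mice (median 84.9). Home cage mouse 5 was the highest, and the groups overlapped at home cage mouse 2, which lay below trained mice 4 and 6. Gad2 fell by 0.40 on the log2 scale (standard error 0.09, adjusted p = 0.0401), with an adjusted p of up to 0.163 without home cage mouse 5. It is in the lists of interneurons and of neurons, 1 of 14 and 1 of 12 members that passed. All 14 interneuron genes were negative (median -0.19), 6 at an unadjusted p under 0.05. Their summed level ran from 1093 to 1397 CPM in the home cage mice (median 1304) and from 991 to 1167 CPM in the trained mice (median 1093), with home cage mouse 2 the only one in the range of the trained mice. Of the 12 neuronal markers 8 were lower at an unadjusted p under 0.05 (median -0.19, and -0.11 without the 4 mice rich in choroid plexus). Of 15 GABA receptor genes 0 passed, 5 were lower at an unadjusted p under 0.05 and the median was -0.13. Without home cage mice 1 and 3 there was 1 lower, and without the 4 mice rich in choroid plexus the median was -0.02. Htr3a, the ion channel for serotonin found on a class of interneurons, had 4.00 to 6.96 CPM in home cage and 3.01 to 3.99 CPM in trained mice, where every trained mouse lay below every home cage mouse (log2 fold change -0.57, adjusted p = 0.113). Htr3a passed DESeq2's test, and so did Gad1, the other glutamate decarboxylase.

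Among the genes that fell, Necab1 and Rcan2 act in calcium signalling. Necab1 (ENSMUSG00000040536), a neuronal EF-hand protein that binds calcium, had 38.6 to 63.6 CPM in the home cage mice (median 52.3) and 28.8 to 46.2 CPM in the trained mice (median 36.0). Trained mouse 4 was the highest of its group and lay above home cage mouse 6, and the other 5 trained mice lay below all home cage mice. Its log2 fold change was -0.57 (standard error 0.11, adjusted p = 0.0321), with an adjusted p of up to 0.0865 without trained mouse 3. Of the 26 calcium-binding proteins 1 passed, 7 were lower and 1 higher at an unadjusted p under 0.05, with a median of -0.05. Rcan2 (ENSMUSG00000039601, chromosome 17), which binds and regulates the calcium-dependent phosphatase calcineurin, had 144 to 168 CPM in home cage and 106 to 144 CPM in trained mice, with medians of 159 and 115. Only trained mouse 6 reached the range of the home cage mice, and Rcan2 fell by 0.40 (adjusted p = 0.0337, up to 0.0936 without trained mouse 2).

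In the list of calcium release and store filling 1 gene passed, in the direction higher. Ryr1 (ENSMUSG00000030592, chromosome 7 from 28702769 to 28824604), a ryanodine receptor that releases calcium from the endoplasmic reticulum, had 4.16 to 6.81 CPM in the home cage mice (median 5.58) and 5.60 to 29.5 CPM in the trained mice (median 8.70). Trained mouse 2 stood far above the rest, trained mice 3, 5 and 6 lay above all home cage mice, and trained mice 1 and 4 lay within them. The log2 fold change was 1.09 with and 0.58 without trained mouse 2, at adjusted p of 0.0321 and 0.210. Of 30 genes in this list 1 passed, 9 were higher and 2 were lower at an unadjusted p under 0.05, and the median was 0.19. Leaving out single mice gave medians from 0.15 to 0.22. Among 50 voltage-gated channels 0 passed, 6 were higher and 2 were lower at an unadjusted p under 0.05, and the median was 0.09. Cacna1h, the T-type calcium channel, had 63.1 to 102 CPM in home cage mice, the highest in mouse 6, and 80.6 to 122 CPM in trained mice (log2 fold change 0.39, adjusted p = 0.105). It was the 1 voltage-gated channel that passed DESeq2's test.

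In Pkd1, Dot1l and C78859, which rose, trained mouse 2 was the highest. Pkd1 (ENSMUSG00000032855), polycystin-1, a membrane protein of primary cilia and cell contacts, ran from 43.3 to 70.4 CPM in home cage and from 53.1 to 115 CPM in trained mice. Trained mice 1 and 4 lay within the home cage mice and the other 4 above them, at a log2 fold change of 0.52 (adjusted p = 0.0359) or 0.37 (adjusted p = 0.210) without trained mouse 2. Dot1l (ENSMUSG00000061589), a methyltransferase of histone H3, had 16.6 to 24.0 CPM against 20.2 to 47.2 CPM. Only trained mouse 1 lay within the home cage mice, and the log2 fold change of 0.57 (adjusted p = 0.0337) was 0.38 (adjusted p = 0.201) without trained mouse 2. The long noncoding RNA C78859 (ENSMUSG00000110710, chromosome 8 from 95048786 to 95054728) had 1.37 to 2.48 CPM and 2.01 to 13.0 CPM, again with trained mouse 2 the highest. It rose by 1.44 on the log2 scale (adjusted p = 0.0337), or 0.79 without that mouse (adjusted p = 0.259).

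Other genes rose without trained mouse 2 standing apart. Fam53a (ENSMUSG00000037339, chromosome 5 from 33757687 to 33788204) had 28.1 to 35.6 CPM in the home cage mice (median 32.5) and 36.8 to 40.5 CPM in the trained mice (median 38.6). The groups did not overlap, and it rose by 0.26 on the log2 scale (standard error 0.06, adjusted p = 0.0337, up to 0.0919 without trained mouse 2). Fam163b (ENSMUSG00000009216) had 242 to 433 CPM in home cage and 383 to 583 CPM in trained mice, with medians of 285 and 443. All trained mice lay above home cage mice 1 to 5, while home cage mouse 6, at 433 CPM, lay above trained mice 5 and 6. Its log2 fold change was 0.60 (adjusted p = 0.0337, up to 0.109 without trained mouse 3). Plb1 (ENSMUSG00000029134), a phospholipase, had 1.17 to 2.38 CPM and 2.19 to 3.41 CPM, overlapping at home cage mouse 6 and trained mouse 5 (log2 fold change 0.89, adjusted p = 0.0372, up to 0.101 without home cage mouse 5). Xkr6 (ENSMUSG00000035067), of the XK family of membrane proteins, had 0.619 to 2.38 CPM against 1.62 to 3.37 CPM, with trained mice 1 and 4 in the range of the home cage mice (log2 fold change 0.93, adjusted p = 0.0337, up to 0.124 without trained mouse 2).

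Chn1os3 and Mexis, which rose, are noncoding RNAs at low levels. Chn1os3 (ENSMUSG00000086544) lies opposite the chimaerin gene Chn1 on chromosome 2 (from 73426870 to 73446356) and had 56 counts over the home cage mice and 181 over the trained mice. It had 0.0502 to 0.325 CPM in the first group and 0.381 to 0.897 CPM in the second, without overlap, and rose by 1.64 on the log2 scale (standard error 0.36, adjusted p = 0.0337, up to 0.111 without home cage mouse 2). Reads of an antisense gene depend on the strand setting of the counting, which the sources used here do not give, though the library kit was stranded. Mexis (ENSMUSG00000086712) had 2 counts, both in home cage mouse 4, against 56 in 5 of the 6 trained mice and 0 in trained mouse 4 (adjusted p = 0.0337, up to 0.108 without home cage mouse 2).

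**Figure D2:**
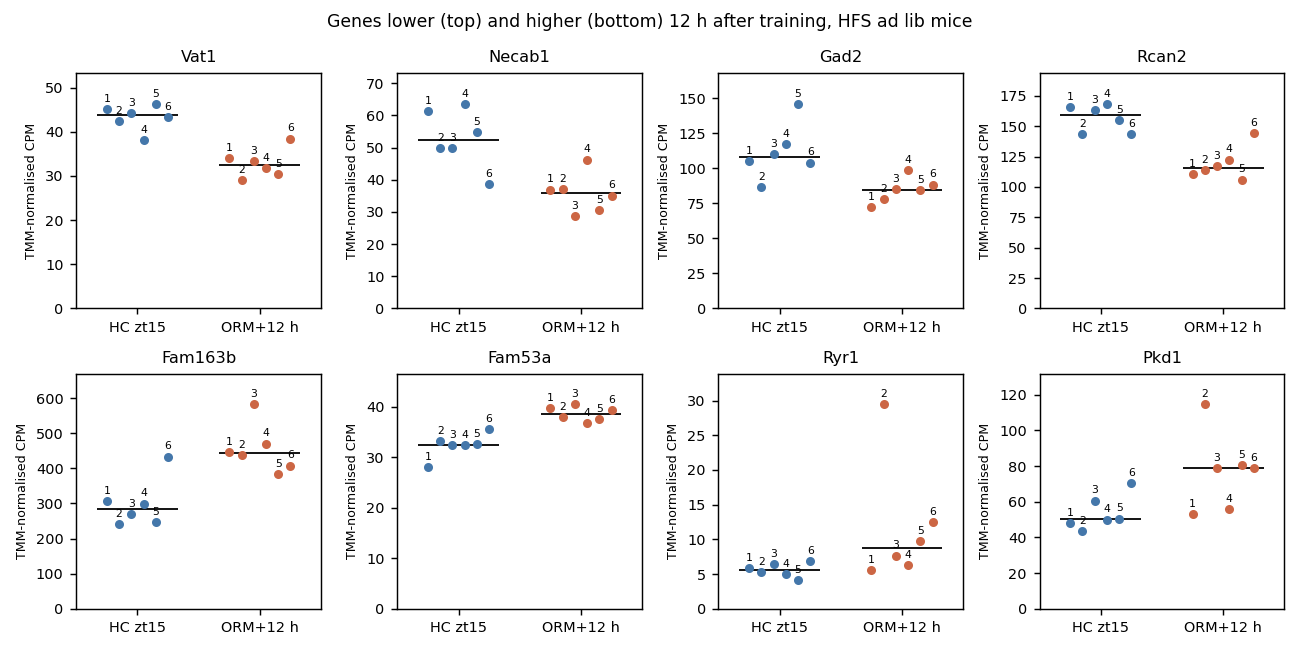
Level in CPM of 8 genes in each of the 12 mice, home cage on the left and trained on the right of each panel, with mouse numbers beside the points and a line at each median. Vat1, Necab1, Gad2 and Rcan2 were lower after training, Fam163b, Fam53a, Ryr1 and Pkd1 higher, and trained mouse 2 stands at 29.5 CPM of Ryr1 and 115 CPM of Pkd1.

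Vat1, Dnm3 and Epb41l3 were among the 12 genes with the smallest p that fell. Vat1 (ENSMUSG00000034993, chromosome 11), a membrane protein known from synaptic vesicles, had 38.0 to 46.3 CPM in the home cage mice (median 43.7) and 29.0 to 38.4 CPM in the trained mice (median 32.5). Just 1 pair of mice overlapped, trained mouse 6 above home cage mouse 4. Vat1 changed by -0.40 on the log2 scale (standard error 0.08, adjusted p = 0.0321), passed in 10 of the 12 fits with a mouse left out, and the adjusted p reached 0.0919 without trained mouse 2. Among other genes named here, Ryr1 and Necab1 passed in 8 of these fits and Gad2 in 4. Fam53a, Lrrc56, Nap1l5, Tspyl4 and Dnaja1 passed in 3 and Plb1 in 2. Dnm3 (ENSMUSG00000040265), a dynamin that pinches membranes at synapses, had 64.8 to 88.0 CPM in home cage mice and 48.1 to 79.6 CPM in trained mice. Trained mouse 4 lay among the home cage mice and the other 5 below them all, with a log2 fold change of -0.44 (adjusted p = 0.0337, up to 0.0934 without trained mouse 3). Epb41l3 (ENSMUSG00000024044), a protein 4.1 that ties the membrane to spectrin and actin, had 171 to 224 CPM against 139 to 183 CPM. There too trained mouse 4 alone reached the home cage range (log2 fold change -0.33, adjusted p = 0.0337, up to 0.0862 without trained mouse 2). In the list of 33 genes of presynaptic release Vat1 alone passed, 6 were lower and 1 higher at an unadjusted p under 0.05, and the median was -0.11. Without the 4 mice rich in choroid plexus this median was -0.03. Rims2, a scaffold of the release site, passed DESeq2's test with Vat1.

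Postsynaptic genes had the opposite sign at the median without passing. Of 24 scaffold genes 5 were higher and 0 were lower at an unadjusted p under 0.05, 0 passed, and the median was 0.09. This median was 0.04 to 0.15 with single mice left out, 0.02 without home cage mice 1 and 3 and 0.04 with offsets for GC content and length. Dlg4, which encodes PSD-95, had 1583 to 2270 CPM in the home cage mice (median 1728) and 1937 to 2406 CPM in the trained mice (median 2173). Home cage mouse 6 reached the trained range and the other 5 lay below it (log2 fold change 0.28, adjusted p = 0.126). Cnih3, an auxiliary subunit of AMPA receptors, had 59.2 to 121 CPM and 87.6 to 123 CPM, again with home cage mouse 6 high (log2 fold change 0.37, adjusted p = 0.103, past the threshold in DESeq2's test). The 27 ionotropic glutamate receptor genes had a median of 0.01, and 3 were higher and 1 was lower at an unadjusted p under 0.05.

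Elavl4, Nap1l5 and Tspyl4 were also among the genes with the smallest p that fell. Elavl4 (ENSMUSG00000028546), the neuronal RNA-binding protein HuD, had 56.8 to 76.5 CPM in home cage and 42.9 to 62.9 CPM in trained mice, with medians of 68.9 and 44.7. Trained mouse 4 lay above home cage mice 3 and 6, and the other trained mice below all home cage mice (log2 fold change -0.47, adjusted p = 0.0337, up to 0.0919 without trained mouse 2). Nap1l5 (ENSMUSG00000055430), an imprinted relative of nucleosome assembly protein 1, had 251 to 333 CPM against 208 to 221 CPM. Its groups did not overlap, and it fell by 0.39 (standard error 0.09, adjusted p = 0.0337, up to 0.111 without home cage mouse 5). Tspyl4 (ENSMUSG00000039485), of the same protein family, had 537 to 694 CPM and 447 to 643 CPM. Trained mouse 4 was again the exception, and the log2 fold change was -0.32 (adjusted p = 0.0337, up to 0.116 without trained mouse 2).

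The list of chaperones had a negative median and 1 member past the threshold. Dnaja1 (ENSMUSG00000028410), a co-chaperone of Hsp70, had 220 to 333 CPM in the home cage mice (median 281) and 198 to 272 CPM in the trained mice (median 205). Trained mouse 4 lay above home cage mice 3 and 6, and the other 5 trained mice below all of them. Its log2 fold change was -0.39 (standard error 0.09, adjusted p = 0.0457, up to 0.160 without home cage mouse 2). Of 25 chaperones and genes of the unfolded protein response 7 were lower and 0 higher at an unadjusted p under 0.05, and the median was -0.15. Ifit2 (ENSMUSG00000045932), an antiviral protein induced by interferon, had 5.68 to 7.22 CPM in the home cage and 3.26 to 6.17 CPM after training (log2 fold change -0.59, adjusted p = 0.0337, up to 0.124 without trained mouse 2). Trained mouse 5 alone lay in the home cage range. Of the 25 immune and interferon genes listed, which do not include Ifit2, 0 passed, with a median of -0.04.

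Processed pseudogenes were 3 of the 12 genes with the smallest p that fell, and reads of such copies can come from their parent genes. Gm7783 (ENSMUSG00000107920) had 32 counts in 4 of the 6 home cage mice and 0 in all trained mice, at least 10.9-fold lower against a floor of 3 counts over the group, which covers counting error alone. Home cage mouse 4 held most of them, and without it the bound was 4.17-fold. Gm15464 (ENSMUSG00000082609) had 33 counts in 3 home cage mice, most of them in mouse 2, and 0 in all trained mice, at least 11.3-fold lower by the same floor, or 4.53-fold without mouse 2. Their adjusted p were 0.0337 and 0.0337, and up to 0.121 (without home cage mouse 4) and 0.160 (without home cage mouse 2). Gm9816 (ENSMUSG00000085783) had more counts, with 25.4 to 32.3 CPM in home cage and 20.6 to 25.5 CPM in trained mice. The overlap was trained mouse 4, which lay just above home cage mice 3 and 4 (log2 fold change -0.29, adjusted p = 0.0337, up to 0.136 without home cage mouse 2).

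Immediate early genes, the classic response to training, had a median log2 fold change of -0.10 over 25 genes, where 0 passed, 1 was higher and 1 was lower at an unadjusted p under 0.05. Jund, an AP-1 subunit, had 177 to 245 CPM in home cage and 197 to 235 CPM in trained mice (log2 fold change 0.15, adjusted p = 0.244), with the groups overlapping, and its log2 fold change was -0.0056 with offsets for GC content and length. Of 25 late effectors of neuronal activity 0 passed, with a median of -0.06. Among them Rgs4, a brake on G protein signalling, had 208 to 288 CPM against 172 to 247 CPM (log2 fold change -0.34, adjusted p = 0.165).

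Clock and hormone targets were lower at the median. Of 20 core clock genes 6 were lower and 0 higher at an unadjusted p under 0.05, 0 passed, and the median was -0.11. Without home cage mice 1 and 3 there were 3 lower. The lowest log2 fold change of the list, -0.80, was that of Rorb, which is also in the cortex and subiculum list. Hlf, a clock-driven transcription factor, had 137 to 191 CPM in home cage and 110 to 147 CPM in trained mice (log2 fold change -0.39, adjusted p = 0.0999), where trained mouse 6 and home cage mouse 2 overlapped. It passed DESeq2's test. Ciart, a repressor within the clock, had 12.7 to 25.5 CPM against 10.5 to 13.8 CPM (log2 fold change -0.49, adjusted p = 0.121), with home cage mouse 1 the highest. Of 20 glucocorticoid targets 4 were lower at an unadjusted p under 0.05 and 0 passed (median -0.15, and -0.06 without home cage mouse 2). Lcn2, lipocalin 2, had the smallest p of this list, with 17.5 CPM in home cage mouse 2 and at most 0.181 CPM in the other 11. Its log2 fold change was -5.03 (adjusted p = 0.0788) and 1.89 without that mouse. Tsc22d3, known as GILZ, had 61.1 to 95.6 CPM and 54.7 to 66.0 CPM (log2 fold change -0.42, adjusted p = 0.116). The exact minute of death within the hours around zt15 is not given per mouse, so clock time and training cannot be told apart to that degree. The 26 genes of thyroid hormone metabolism and signalling had a median of -0.01, where 3 were higher and 3 were lower at an unadjusted p under 0.05 and 0 passed.

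In the lists of metabolism 0 genes passed the test. Of 25 genes of glycolysis and lactate handling 24 had negative log2 fold changes, 12 at an unadjusted p under 0.05, 0 passed, and the median was -0.15. Among the 14588 genes of at least 1 CPM, 7573 were negative, 1629 of them at an unadjusted p under 0.05. With single mice left out the median stayed between -0.21 and -0.14. Gapdh had 212 to 298 CPM in the home cage mice and 199 to 249 CPM in the trained mice (log2 fold change -0.21, adjusted p = 0.158), with the groups overlapping. Among 28 genes of cholesterol and fatty acid synthesis 23 were negative, 6 at an unadjusted p under 0.05, and 0 passed (median -0.10). Acly, which makes cytosolic acetyl-CoA, had 158 to 195 CPM against 135 to 186 CPM, with trained mouse 4 alone in the home cage range (log2 fold change -0.28, adjusted p = 0.0944). Hmgcs1, at the start of the mevalonate pathway, had 141 to 179 CPM and 113 to 152 CPM (log2 fold change -0.29, adjusted p = 0.101). Both passed DESeq2's test. For 47 nuclear subunits of oxidative phosphorylation the median was -0.04 and for 13 mitochondrially encoded proteins -0.14, with 0 passing in each. With single mice left out these medians ran from -0.069 to -0.002 and from -0.24 to 0.02. Insulin and IGF signalling (31 genes, median 0.01) and S6 with its kinases (9 genes, median -0.01) lay within 0.02 of the median of all genes, as did 54 cytosolic ribosomal proteins at -0.00. Rps29 had the smallest p of the ribosomal proteins, at 130 to 159 CPM in home cage and 134 to 182 CPM in trained mice (log2 fold change 0.22, adjusted p = 0.239).

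In the lists not yet named, 0 genes passed. Their median log2 fold changes were -0.26 for 13 genes of glutamate handling in astrocytes, -0.01 for 24 neuropeptides, -0.02 for 34 receptors of monoamines and acetylcholine, 0.10 for 35 genes of Notch and Wnt signalling, and 0.12 for 29 genes of the extracellular matrix and perineuronal net. With the choroid plexus level as a covariate the Notch and Wnt median was 0.02 and the matrix median 0.06. Without the mice rich in choroid plexus they were 0.09 and 0.04. The 11 nuclear and noncoding RNAs had a median of 0.44, with 10 of 11 positive and 1 at an unadjusted p under 0.05. That median was 0.33 without trained mouse 2 and 0.30 without home cage mouse 2. Trained mouse 2 was the highest of the 12 for Miat (56.6 CPM) and Snhg11 (124 CPM), and Snhg11 changed by 0.36 with and 0.13 without it. Of the 13 genes of glutamate handling in astrocytes 11 were negative, 5 were lower and 1 higher at an unadjusted p under 0.05, and the median was -0.15 without home cage mice 1 and 3. The 1 that was higher, the glutamine transporter Slc38a5, passed DESeq2's test.

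**Figure D3:**
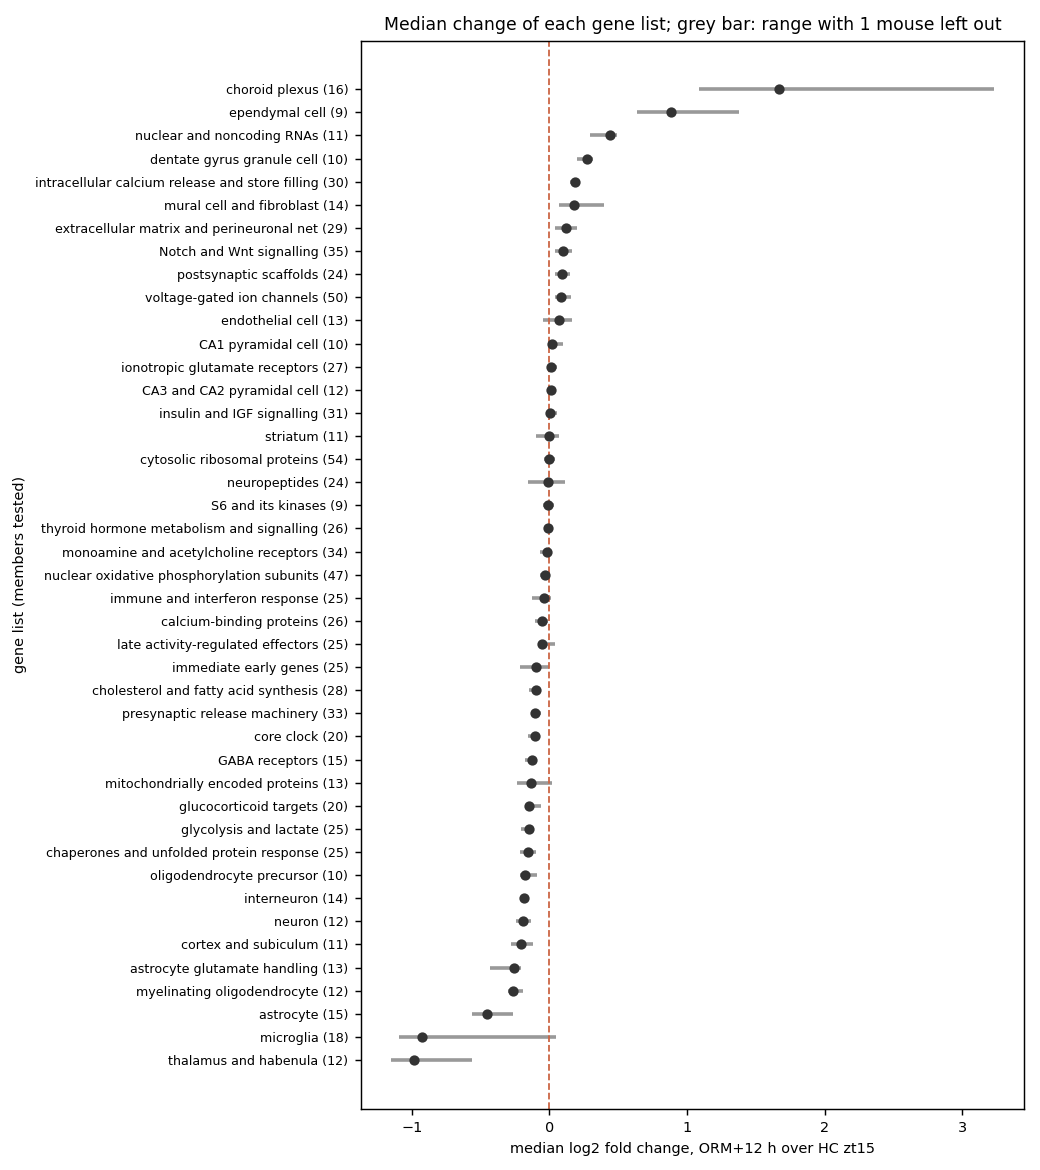
Median log2 fold change, trained over home cage, of the members tested in each of 43 gene lists, with a grey bar from the lowest to the highest median when 1 mouse at a time was left out and a dashed line at the median of all 30141 genes. The choroid plexus list has the highest median, 1.67, and the thalamus and habenula list the lowest, -0.99, and the bar of the microglial list reaches 0.05.

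The change was also set against that on the other diets. The change of the trained over the home cage mice on HFS ad lib minus that on NC ad lib passed an adjusted p under 0.05 for 32 of 30141 genes (0.106%), and 7 of the 54 were among them. The 54 were chosen by their change in the same 12 mice, so counts and medians over them are a description here and in the comparisons that follow. Levels of choroid plexus markers went in opposite directions at the median on these diets, and their part in the difference was not tested. The 16 markers summed to 4622, 15560, 638, 545, 5746 and 16824 CPM in home cage mice 1 to 6 on NC ad lib and to 421, 383, 281, 3911, 575 and 353 CPM in trained mice 1 to 6. The median was higher in the home cage there and higher after training on HFS ad lib, and the groups overlapped on both diets. The median difference between the changes was 4.26 for these markers and 2.09 for the ependymal markers, on the log2 scale, and 0 of either passed. For the microglial markers it was -1.24 and for those of thalamus and habenula -0.62, with 0 passing in each. With the choroid plexus level as a covariate 2 genes passed, 1 of them among the 32. DESeq2's Wald test gave 615 genes, the microglial level as a covariate 6, and a fit of only the groups compared 0. Lrrc56 (ENSMUSG00000038637), a leucine-rich repeat protein, passed on HFS ad lib itself and in the difference from NC ad lib. It had 4.93 to 8.10 CPM in the home cage mice and 6.92 to 11.7 CPM in the trained mice on HFS ad lib, where all trained mice lay above home cage mice 1 to 5. On NC ad lib the order was opposite, with 6.41 to 10.6 CPM in the home cage and 5.83 to 7.03 CPM after training. The log2 fold changes were 0.57 (adjusted p = 0.0337, up to 0.111 without home cage mouse 2) on HFS ad lib and -0.43 on NC ad lib, and their difference was 1.00 (standard error 0.17, adjusted p = 0.00634). Synrg (ENSMUSG00000034940), a partner of the AP-1 clathrin adaptor, had 116.6 to 125 CPM in trained mice on NC ad lib and 83.0 to 110 CPM in their home cage mice, without overlap. On HFS ad lib it had 84.7 to 114 CPM after training and 93.3 to 121 CPM in the home cage, and the difference between the changes was -0.42 (adjusted p = 0.0150). Spmip3 (ENSMUSG00000015962), a protein of the sperm tail, had 38 counts in 4 of 6 trained mice and 0 in the home cage mice on HFS ad lib, at least 12.3-fold higher by the same floor (8.64-fold without trained mouse 5). It did not pass on HFS ad lib itself (adjusted p = 0.101). On NC ad lib it had 0 against 68 counts (adjusted p = 0.0129 for the difference). The count of 32 fell to 2 without trained mouse 1, 3 without home cage mouse 2, 5 without trained mouse 3, 13 without home cage mouse 5, 14 without trained mouse 2, 17 without home cage mouse 4, and 19 without trained mouse 5 or 6, and rose to 131, 951 and 1255 without home cage mouse 6, home cage mouse 3 and trained mouse 4.

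Against time-restricted feeding of the same food 0 genes (0.0%) differed in their change in edgeR's test, with 4247 genes at an unadjusted p under 0.05 and 17 genes in DESeq2's Wald test. Without home cage mouse 3 there were 16, and without trained mouse 3 there were 2. Here too the levels of choroid plexus markers went in opposite directions at the median, and their part in the difference was not tested. The 16 markers summed to 8212, 502, 19435, 9455 and 445 CPM in home cage mice 1 to 5 on HFS TRF and to 485, 381, 211, 249, 740 and 10985 CPM in trained mice 1 to 6. Their median difference, HFS TRF minus HFS ad lib, was -3.30 on the log2 scale, that of the ependymal markers -2.17, and 0 of either passed. For the microglial markers it was 1.23 and for those of thalamus and habenula 0.46, with 0 passing in each. The 21 genes that rose on HFS ad lib had a median log2 fold change of 0.60 there, 0.16 on HFS TRF and 0.08 on NC ad lib, where the median of all genes is 0.00. A larger median on HFS ad lib follows from the choice of these genes there. For the 33 that fell the medians were -0.44, -0.10 and 0.04. On the other diets 3 of the 21 passed the test under HFS TRF and 0 on NC ad lib, and 1 and 0 of the 33. Of all genes 741 (2.46%) and 63 (0.209%) passed on those diets. Fam163b had log2 fold changes of 0.50 under HFS TRF and 0.30 on NC ad lib, Plb1 0.74 and 0.48, and Dnaja1 -0.28 and 0.11. Under HFS TRF Fam163b (adjusted p = 0.0330) and Plb1 (adjusted p = 0.0458) passed edgeR's test, and Dnaja1 did not (adjusted p = 0.0801).

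The late change was also set against the change 1 h after training on the same diet, measured against home cage mice of zt3. These groups share no mouse with the 12, but experiment and time differ together and cannot be told apart. The changes differed for 276 genes (0.916%), 89 more positive and 187 more negative at 12 h, among them 7 of the 21 and 12 of the 33. The number was 91 with only the groups compared, 491 with the choroid plexus level as a covariate and 160 without the 4 mice rich in choroid plexus. Median differences were 1.21 for choroid plexus markers, -0.83 for microglia, -0.85 for thalamus and habenula and -1.18 for astrocytes, with 0 passing in each list. Egr4 (ENSMUSG00000071341), an immediate early transcription factor, had 112 to 164 CPM 1 h after training and 35.2 to 50.9 CPM in the zt3 home cage, without overlap. At 12 h it had 38.9 to 64.4 CPM and in the zt15 home cage 35.5 to 77.6 CPM. The difference was -1.87 on the log2 scale (standard error 0.21, adjusted p = 3.9e-08). Arid5a (ENSMUSG00000037447), a protein that stabilizes mRNA, had 8.25 to 12.4 CPM at 12 h and 11.9 to 16.9 CPM in its home cage, against 14.9 to 22.2 CPM at 1 h and 7.73 to 11.7 CPM at zt3. Its changes had opposite signs, -0.48 at 12 h and 0.97 at 1 h, and differed at an adjusted p of 3.0e-07. Sertad1 (ENSMUSG00000008384), a regulator of cell cycle transcription, had 12.9 to 18.0 CPM at 1 h and 8.22 to 10.1 CPM at 12 h, and its changes differed by -1.24 (adjusted p = 3.4e-07). In the list of 25 immediate early genes 16 differed in this test, with a median difference of -1.32. With 1 of these 12 mice left out at a time the number of genes ran from 153 (home cage mouse 5) to 403 (home cage mouse 6).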

How the data were processed

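Upstream, the authors used Trim Galore for trimming, HISAT2 for alignment to GRCm39 and featureCounts for uniquely mapped reads. Their raw counts were used as deposited, and 56310 of 57010 genes matched an annotation of GRCm39 (GENCODE vM39), which gives the coordinates above. The strand setting of the counting is not given in the sources used here. The 30141 genes with at least 10 counts over all 71 mice were fitted with edgeR (TMM normalization, quasi-likelihood F test) in 1 model of 12 groups. P-values were adjusted by the Benjamini-Hochberg method over all genes tested, and the same model gave the differences between changes as interaction contrasts. CPM are edgeR's cpm values with TMM-scaled library sizes. Standard errors are the log2 fold change over the square root of F.

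Genes were named from those that a rule gave: the 12 with the smallest p in each direction among those that passed, from each list the members that passed or else those with the smallest p, Ttr and C1qa, and the 3 with the smallest p of each interaction. Gad1, Rims2, Bin2 and Fcgr2b were chosen after their values were seen. The groups and the lists were chosen with earlier results of these data known. Lists are described by counts and medians with no test of their own. DESeq2's Wald test was run with its default settings. Some genes are not reported here.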

Additional observations from a re-analysis of the deposited data

Results flagged for a closer look

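In 32 of 142 groups of 6 mice examined, the highest or lowest mouse stood apart from the nearest of the others by more than Dixon's 95% limit for its share of the range, which chance exceeds in about 1 of 20 groups. The groups are values of the same 12 mice, many of them correlated, and some genes were chosen after a mouse had been seen to stand apart, so the count is not set against that rate. Home cage mouse 2 was that mouse 9 times, home cage mouse 6 was so 5 times, home cage mouse 3 and trained mouse 4 each 4 times, and trained mouse 2 was so 3 times. The remaining 7 fell to home cage mice 1 (1), 4 (2) and 5 (1) and trained mice 1 (2) and 6 (1). What sets these mice apart was not tested.

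Home cage mouse 2 stood apart for microglial genes, with 79.2 CPM of C1qa, 83.4 CPM of C1qc, 44.9 CPM of Bin2, 9.74 CPM of Fcgr2b and 918 CPM summed over the microglial list. It was also the highest for Lcn2 (17.5 CPM) and for the pseudogenes Gm15464 (0.414 CPM) and Gm9816 (32.3 CPM) and the lowest for Vtn (2.48 CPM). Home cage mouse 3 stood apart for choroid plexus genes, at 8186 CPM of Ttr, 243 CPM of Kl and 9294 CPM over the list, and for mural cells and fibroblasts at 78.0 CPM.

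Trained mouse 2 was far above its group for Ryr1 (29.5 CPM), Dot1l (47.2 CPM) and C78859 (13.0 CPM). Trained mouse 4 stood above its group, toward the home cage mice, for Dnm3 (79.6 CPM), Tspyl4 (643 CPM), Dnaja1 (272 CPM) and Acly (186 CPM). Home cage mouse 6 stood above its group, toward the trained mice, for Fam163b (433 CPM), Plb1 (2.38 CPM), Dlg4 (2270.1 CPM) and Cacna1h (102 CPM), and above all trained mice for the CA1 list (1047 CPM).

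The other values that stood apart were 2.48 CPM of C78859 in home cage mouse 5, 0.0354 CPM of Mexis and 0.389 CPM of Gm7783 in home cage mouse 4, and 239 CPM of oligodendrocyte precursor markers in home cage mouse 1. Trained mouse 1 had the lowest CA1 level (762 CPM) and the lowest total (44964018 counts) of its group, and trained mouse 6 the highest level of thalamus and habenula markers (195 CPM).

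The change after training differed between diets, HFS ad lib minus NC ad lib, by 1.00 for Lrrc56 and -0.42 for Synrg on the log2 scale. For Spmip3 the fitted difference was 12.35, which depends on the prior count, since 1 group on each diet was at 0. Between 12 h and 1 h after training on HFS ad lib the changes differed by -1.87 for Egr4, -1.45 for Arid5a and -1.24 for Sertad1.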

How the results depend on the processing

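The number of genes that passed depended on the alternative. Against 54 (21 higher, 33 lower), DESeq2 gave 252 (79 and 173), a fit of these 12 mice alone 0 (0 and 0, with 3070 at an unadjusted p under 0.05), the replicate number within each task as a term 426 (150 and 276), and the microglia covariate 10 (2 and 8). Of alternatives chosen after seeing the data, leaving out home cage mouse 2 and trained mouse 2 gave 0 (0 and 0, with 3792 at an unadjusted p under 0.05), leaving out home cage mouse 3 and trained mice 1, 3 and 5 gave 28 (4 lower), and leaving out home cage mice 1 and 3 gave 87 (72 lower). With 1 mouse left out the range was 0 (trained mouse 2) to 694 (home cage mouse 6), 0 to 301 higher and 0 to 393 lower.

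Deviations of mice with the same replicate number had correlations from -0.09 to 0.48, over 0.1 in 4 of 6 pairs, and 1 of 6 mice correlated best with its own number. The labels name nothing that a number shares, so the mice were not paired. A replicate block in the model of 12 groups gave 37 genes (13 higher), and a replicate block in a fit of the 12 mice alone 78 (41 higher).

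For HFS ad lib minus NC ad lib (32 genes) the counts were DESeq2 615, at least 1 count 17, filterByExpr 73, only the groups compared 0 (4189 at an unadjusted p under 0.05), replicate number within task 515, choroid plexus covariate 2, microglia covariate 6, protein-coding genes alone 48, and 2, 2, 671 and 95 under the alternatives chosen after seeing the data (without home cage mouse 2 and trained mouse 2, without the mice rich in choroid plexus, without home cage mice 1 and 3, GC and length offsets). With 1 of the 12 mice on HFS ad lib left out they ran from 2 to 1255, and no mouse on NC ad lib was left out. For HFS TRF minus HFS ad lib (0 genes) DESeq2 gave 17, the choroid plexus covariate 1, leaving out home cage mice 1 and 3 1, and 1 of the same 12 left out 0 to 16. For 12 h minus 1 h (276 genes) the counts were DESeq2 546, only the groups compared 91, replicate number within task 626, choroid plexus covariate 491, without home cage mouse 2 and trained mouse 2 178, without the mice rich in choroid plexus 160, and 153 to 403 with 1 of the same 12 left out.

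Over 33 results for named genes that passed, 555 of 902 alternatives kept direction and side of the threshold, 346 kept direction alone and 1 reversed. Over 25 that did not pass, 642 of 700 kept both, 51 passed and 7 reversed. Reversed were C1qa (0.12 without home cage mouse 2 and trained mouse 2, and from -1.14 to 0.049 with 1 mouse left out), Bin2 (0.072 without both mice), Jund (-0.0056 with GC and length offsets) and Lcn2 (from -5.37 to 1.89, the latter without home cage mouse 2, with 1 mouse left out, 1.93 without both mice, 1.28 with the microglia covariate and 0.47 with the replicate block in 12 groups). The cause was not tested, beyond the mice and genes that each alternative leaves out. Genes with few counts, such as Gm7783, Gm15464, Mexis and Spmip3, are limited by depth.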
